A study of Mus musculus with 18 samples.

Results

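The enzymes of methylation on lysine 9 of histone H3 (H3K9) were followed through 10 genes in all 9 tissue and genotype groups of the series. They are the methyltransferases Suv39h1, Suv39h2, Setdb1, Ehmt1 and Ehmt2, the corepressor Trim28, and the demethylases Kdm3a, Kdm3b, Kdm4b and Kdm4d. They were taken by mouse symbol from the Ensembl gene identifiers of the count files, and all 10 were found among 37620 identifiers. The series' title names inducible lysine-to-methionine (K-to-M) mutations of a histone. Mice of a C57B6/129 hybrid strain were labelled wildtype (WT), K9M or K36M, and the labels do not say whether WT mice carry a transgene. Mice of both sexes, 6 to 8 weeks old, were given 2 mg/ml doxycycline in their drinking water, and the labels state this for all genotypes, WT included. Polyadenylated RNA was sequenced from Lin-, cKit+ bone marrow cells (blood stem and progenitor cells), from dissociated intestinal cells and from dissociated testes cells. Each of the 9 groups held 2 libraries. By the numbers in the titles, 6 mice gave both the intestine and the testes libraries, and 6 others gave the marrow. The mice that gave testes, and so the intestine too, were males, while marrow may come from either sex. The part of sex in differences from marrow, also for the X-linked Suv39h1, was not tested. The labels name neither the promoter of the mutant histone nor the length of induction.

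Methylation of H3K9 marks silent chromatin and is read by proteins of the HP1 family. SUV39H1 and SUV39H2 trimethylate H3K9 in pericentric heterochromatin, SETDB1 does so at retroelements to which KRAB zinc finger proteins and TRIM28 bring it, and EHMT1 (GLP) and EHMT2 (G9a) form a dimer that places mono- and dimethylation in euchromatin. KDM3A and KDM3B remove mono- and dimethylation, and KDM4B and KDM4D remove trimethylation. In the male germ line these marks are rebuilt through meiosis and spermatid maturation, and Kdm3a is known there as an activator of protamine and transition protein genes. A histone H3 with methionine in place of lysine 9 or 36 acts as a dominant inhibitor of methylation at that residue.

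The libraries held 13396303 to 21417915 counts in genes. Markers matched the labelled tissues. Progenitor markers (Kit, Cd34, Myb, Gata2 and Meis1) summed to 1033 to 1930 CPM (counts scaled to the library total) in marrow and to at most 75.3 elsewhere, epithelial markers to 7326 to 12211 CPM in intestine and at most 40.7 elsewhere, and spermatocyte markers to 152 to 929 CPM in testes and at most 6.69 elsewhere. 1 library stood apart. The intestine of mouse WT.1476 held 214 CPM of elongating spermatid markers (Prm1, Prm2, Tnp1, Tnp2 and Odf1), against 4.30 to 24.5 CPM in the other 5 intestine libraries. In these bulk samples, fewer cells of a type and less RNA per cell cannot be told apart. Within a tissue, values below are CPM scaled over the 6 libraries of that tissue. Between tissues or between genes they are CPM per kb of exon, scaled over all 18 libraries. Nothing in the labels says whether library preparation was batched.

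Between WT tissues most of the 10 genes differed, at shares near those of all genes. Trim28 and Ehmt2 had the highest levels per kb of the 10 in all 3 tissues. Of the 10 genes, 6 were higher and 2 lower in testes than in intestine (adjusted p under 0.05 in the quasi-likelihood test of edgeR, with p-values adjusted by Benjamini and Hochberg's method). Of all tested genes 81.4% passed, 48.2% higher and 33.2% lower. Testes against marrow gave 4 higher and 3 lower (all genes 82.1%, 48.6% higher and 33.6% lower), and intestine against marrow 1 higher and 6 lower (all genes 64.1%, 34.8% higher and 29.4% lower). Kdm4d, which passed the filter on low counts only through testes, is among the higher genes in both testes comparisons. The median difference over the 10 genes was 1.05, -0.20 and -1.33 on the log2 scale, beside 0.72, 0.67 and 0.03 over all tested genes. These medians depend on the scaling: with library size alone the all-gene medians were 1.33, 0.37 and -0.45, and Kdm3b between testes and intestine, and Kdm3a and Kdm4b between intestine and marrow, then changed sign.

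**Figure D1:**
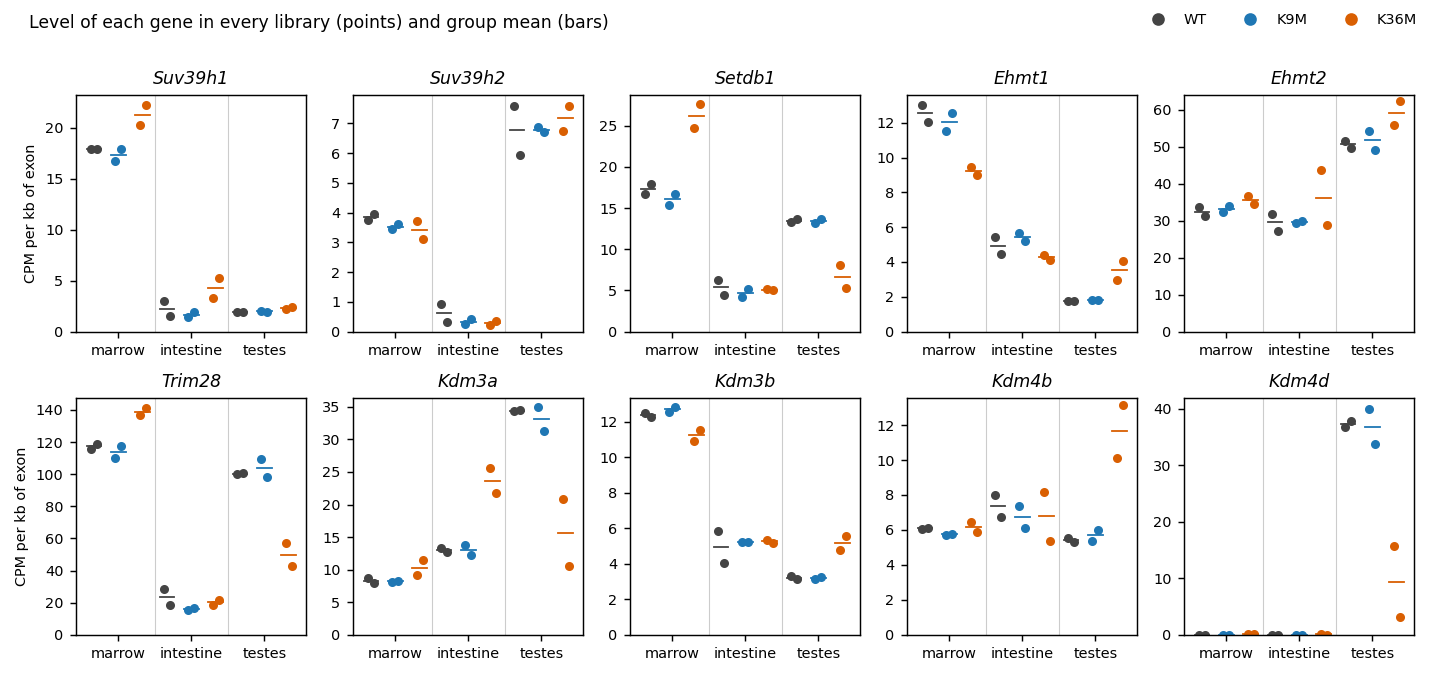
CPM per kb of exon of each gene in all 18 libraries, with points for libraries and short bars for the means of 2 libraries, by tissue and genotype. Kdm4d has high points only in testes, Suv39h1, Ehmt1 and Kdm3b are highest in marrow, and Ehmt2 is highest in testes. Kdm3a is highest in testes in WT and K9M, while in K36M its intestine points lie above its testes points.

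Among the methyltransferases, Suv39h1 (chrX:8061171-8074760 in GRCm38) was a marrow gene. It stood at 17.95 and 17.9 CPM per kb in the WT marrow libraries, at 2.98 and 1.53 in intestine and at 1.97 and 1.93 in testes. The marrow values lay far above the others, and the intestine and testes values overlapped. Marrow exceeded testes 9.17-fold (edgeR adjusted p = 1.02e-07) and intestine 7.90-fold (edgeR adjusted p = 2.95e-07). Its paralog Suv39h2 (chr2:3455815-3475031) had another order, with 7.58 and 5.95 CPM per kb in testes, 3.74 and 3.97 in marrow and 0.925 and 0.325 in intestine. No WT libraries of different tissues overlapped for Suv39h2. Testes exceeded intestine 10.6-fold (edgeR adjusted p = 4.55e-07) and marrow 1.75-fold (edgeR adjusted p = 0.0178). The excess over marrow passed in 19 of 23 alternative settings, and not with scaling by library size alone (adjusted p = 0.111 by edgeR). The higher of the 2 intestine values came from mouse WT.1476, the library with spermatid RNA. That library also held more mitotic marker RNA (206 against 72.5 CPM in mouse WT.1477) and erythroid marker RNA (189 against 82.8). The part of these in the value was not tested. Suv39h2 shares 8.10% of its exon bases with Dclre1c on the other strand, and where the strand setting of the counting is not given, reads there cannot be assigned to either gene.

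Setdb1 (chr3:95323525-95357202) stood at 16.7 and 17.9 CPM per kb in WT marrow, 13.3 and 13.7 in testes and 6.31 and 4.49 in intestine. Its marrow and testes levels were separate in these libraries, but the difference did not pass the test (edgeR adjusted p = 0.0971). It passed with limma-voom (adjusted p = 0.0406) and with scaling by library size alone (0.00776 by edgeR). Intestine was lower than marrow 3.21-fold (edgeR adjusted p = 4.26e-06). Trim28 (chr7:12999114-13031035), which bridges KRAB zinc finger proteins to SETDB1, was the most abundant of the 10 genes in marrow and testes. It stood at 116 and 119 CPM per kb in marrow, 100.03 and 101 in testes and 28.3 and 18.3 in intestine. Its intestine level was 5.04-fold below marrow (edgeR adjusted p = 1.05e-07) and 4.31-fold below testes (edgeR adjusted p = 1.89e-07).

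The partners Ehmt1 and Ehmt2 (chr2:24789928-24919614 and chr17:34898469-34914052) differed in their order across tissues. Ehmt1 stood at 13.04 and 12.1 CPM per kb in marrow, 5.42 and 4.44 in intestine and 1.75 and 1.75 in testes. No WT libraries of different tissues overlapped, and testes was lower than marrow 7.18-fold (edgeR adjusted p = 3.05e-09). Ehmt2 stood at 51.6 and 49.8 CPM per kb in testes, 33.6 and 31.2 in marrow and 31.8 and 27.2 in intestine. Testes exceeded marrow 1.56-fold (edgeR adjusted p = 0.00270), and the intestine and marrow values overlapped.

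Of the demethylases, Kdm3a (chr6:71588972-71632990) was highest in testes, at 34.3 and 34.5 CPM per kb against 13.4 and 12.7 in intestine and 8.69 and 7.94 in marrow. Testes exceeded marrow 4.14-fold (edgeR adjusted p = 2.21e-06). Kdm3b, on chromosome 18, had the reverse order, with 12.5 and 12.3 CPM per kb in marrow, 5.85 and 4.03 in intestine and 3.31 and 3.14 in testes. Testes was lower than marrow 3.83-fold (edgeR adjusted p = 5.7e-08). An antisense transcript annotated over 24.6% of the Kdm3b exon bases is not listed in the files. Kdm4b (chr17:56326062-56402870) had the smallest differences between WT tissues of the 10 genes, at 8.03 and 6.76 CPM per kb in intestine, 6.07 and 6.12 in marrow and 5.53 and 5.29 in testes. None of its 3 tissue differences passed the test, the nearest being testes against intestine (edgeR adjusted p = 0.0503). That difference passed with limma-voom (adjusted p = 0.0471), in a fit of the 12 libraries of both tissues (0.0275 by edgeR) and with 10 of the 18 libraries left out in turn, and testes against marrow passed with scaling by library size alone (0.0177 by edgeR).

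Kdm4d (chr9:14462548-14500482) was a testes gene. The WT testes libraries held 1818 and 2402 counts of it, the WT marrow libraries 2 and 3, and the WT intestine libraries 1 and 0. The single intestine count lay in the library of mouse WT.1476. After allowing for library size, the testes to marrow ratio of the summed counts was 1214, with an exact 95% interval of 520.0 to 3742 that covers counting error only. In K9M mice testes held 4729 counts and intestine 0. The exact 95% lower bound of this ratio was 752, for counting error only, and with 3 counts put in place of 0 the ratio was 925. Kdm4d passed the filter on low counts only in testes among the single-tissue fits. The mutant comparisons therefore cover 9 of the 10 genes in marrow and intestine and all 10 in testes.

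Paralogs changed places between tissues. Per kb, Suv39h1 exceeded Suv39h2 in all 12 marrow and intestine libraries, with ratios of 4.50 to 7.11 in marrow and 3.22 to 14.6 in intestine. In all 6 testes libraries the order was the reverse, with ratios of 0.260 to 0.333. Kdm3a lay below Kdm3b in all 6 marrow libraries (ratios 0.640 to 0.992) and above it in all 12 others, by 10.4 and 10.99 times in WT testes. Ehmt2 exceeded Ehmt1 in every library, by 2.58 and 2.59 times in WT marrow, 5.88 and 6.13 times in WT intestine and 29.5 and 28.5 times in WT testes. Within testes the order of Kdm4b and Kdm4d was reversed in 1 library. Kdm4d was the more abundant in WT testes, where the Kdm4b to Kdm4d ratio was 0.151 and 0.140, and that ratio was 0.646 and 4.17 in the K36M testes of mice 1485 and 1553.

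**Figure D2:**
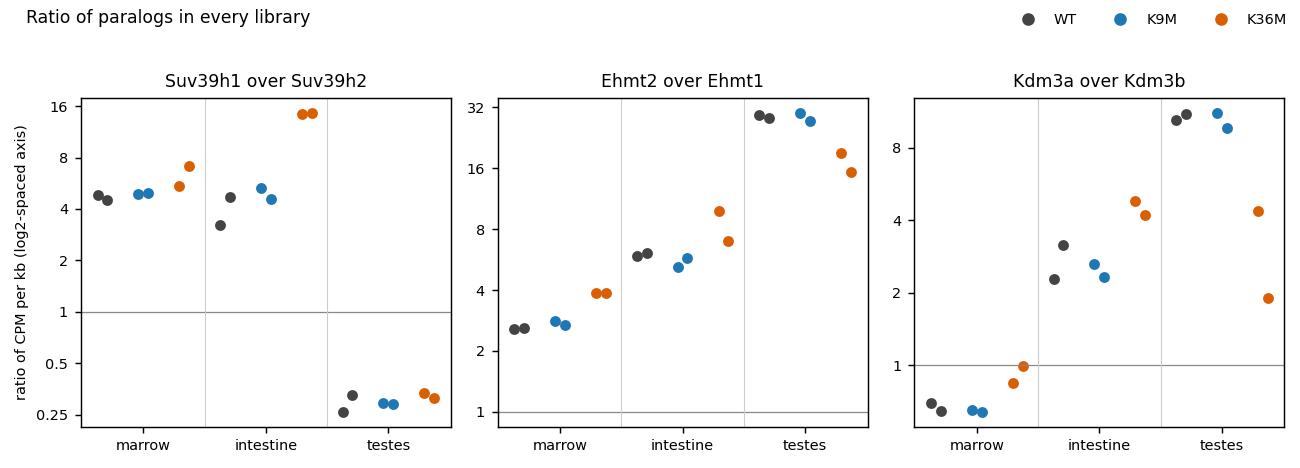
Ratio of CPM per kb of exon between paralogs in each of the 18 libraries, on a log axis, with the line at a ratio of 1. Suv39h1 over Suv39h2 lies above the line in marrow and intestine and below it in testes, and Kdm3a over Kdm3b lies below it only in marrow.

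Under K9M, the mutation at the residue these enzymes act on, no member passed the test in any tissue. In marrow 0 of 9 genes passed the test (1.01% of all genes did), in intestine 0 of 9 (0.211%) and in testes 0 of 10 (0.0678%). At an unadjusted p under 0.05, edgeR gave 0, 1 and 0 genes, beside 14.2%, 10.3% and 2.81% of all genes, and DESeq2 and limma-voom likewise called 0 after adjustment in all 3 tissues. The member medians were -0.03, -0.08 and 0.02 on the log2 scale, beside -0.0019, -0.01 and 0.01 over all genes. In testes the log2 differences lay between -0.04 and 0.08, and in marrow between -0.11 and 0.06. The standard errors were 0.06 to 0.12 in marrow and 0.13 to 0.60 in testes. Changes of that size, and changes larger than 1 standard error, could go undetected. Each error rests on a spread shared by all genotypes of the tissue. In testes the 0.60 was that of Kdm4d, whose K36M libraries stood at 47.5 and 9.73 CPM.

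The widest K9M differences were in intestine, where the standard errors were 0.15 to 0.60. Trim28 stood at 75.3 (mouse WT.1476) and 57.7 CPM in WT, 45.7 and 51.1 in K9M and 57.2 and 69.3 in K36M. Both K9M values lay below both WT values, but the difference did not pass (log2 difference -0.46 ± 0.19 (SE), edgeR adjusted p = 0.482, unadjusted p = 0.0491). Suv39h2 stood at 2.62 and 1.08 CPM in WT, 0.828 and 1.31 in K9M and 0.745 and 1.21 in K36M, with the highest value in mouse WT.1476 and the groups overlapping (log2 difference -0.80 ± 0.60). No K9M effect on any of the 10 genes differed between tissues (0 of 10 for each pair of tissues, where 0.123%, 0.132% and 0.452% of all genes passed for intestine minus testes, marrow minus testes and marrow minus intestine). Kdm4d is counted among the 10, but its WT and K9M libraries of marrow and intestine held 0 to 3 counts. Its effect there could hardly be called (intestine minus testes log2 difference -2.68 ± 4.68 (SE)).

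K36M in marrow raised Setdb1, Suv39h1 and Trim28 and lowered Ehmt1. These were 3 higher and 1 lower of 9 genes tested, where 48% of all genes passed (23.5% higher and 24.6% lower), and the member median was 0.11 beside -0.02 over all genes. Setdb1, the retroelement methyltransferase, stood at 151 and 162 CPM in WT, 143 and 152 in K9M and 218 and 247 in K36M. Both K36M values lay above all 4 others, and the rise was 1.48-fold (log2 difference 0.57 ± 0.08 (SE), edgeR adjusted p = 0.00110). Its partner Trim28 stood at 636 and 653 CPM in WT, 619 and 650.5 in K9M and 730.3 and 766 in K36M. Here too the K36M libraries were the highest, by a smaller step of 1.16-fold (log2 difference 0.21 ± 0.06 (SE), edgeR adjusted p = 0.0138). Suv39h1 stood at 125 and 124 CPM in WT, 119 and 126 in K9M and 137 and 152 in K36M, a 1.16-fold rise close to the threshold (log2 difference 0.22 ± 0.08 (SE), edgeR adjusted p = 0.0445). It passed in 4 of its 13 alternative settings, while Setdb1 passed in all 13.

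Ehmt1, the GLP subunit, stood at 139.6 and 129 CPM in WT, 126 and 135 in K9M and 98.6 and 95.1 in K36M. The K36M libraries lay below all 4 others, 1.39-fold lower than WT (log2 difference -0.47 ± 0.07 (SE), edgeR adjusted p = 0.00157). Its dimer partner Ehmt2 stood at 243 and 226 CPM in WT, 241 and 247 in K9M and 259 and 248 in K36M and did not pass (edgeR adjusted p = 0.194). Of the demethylases, Kdm3a (edgeR adjusted p = 0.0708) and Kdm3b (edgeR adjusted p = 0.0619) had log2 differences of 0.28 and -0.16 that did not pass, and Kdm4b stood at 39.2 and 39.6 CPM in WT, 37.8 and 37.5 in K9M and 40.7 and 37.7 in K36M. With all 18 libraries in 1 fit, Setdb1 alone was called, and without K36M mouse 1312 Setdb1 and Ehmt1 were.

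Markers of other cell types moved in the same libraries. Granulocyte and monocyte markers (Mpo, Elane, Csf1r, Ctsg and Prtn3) summed to 17330.1 and 13646 CPM in WT and 4585 and 3429.7 in K36M, with 5 of 5 lower. Of the erythroid markers 5 of 6 were higher (sums 892 and 1399.8 against 2250.2 and 2328 CPM), of the mitotic markers 7 of 8 were higher (3422 and 3434 against 4909 and 4913), and of the progenitor markers 1 was higher and 4 lower (1705 and 1664 against 1039 and 1033). Their part in the 4 changes was not tested.

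K36M in intestine raised 1 gene of 9, Kdm3a, where 23.3% of all genes passed (11.7% higher and 11.7% lower). The member median was 0.04 beside -0.02 over all genes. Kdm3a stood at 70.4 and 79.2 CPM in WT, 79.96 and 72.7 in K9M and 156 and 136 in K36M. The K36M values were the highest by a wide step, 1.96-fold above WT (log2 difference 0.97 ± 0.16 (SE), edgeR adjusted p = 0.00933). The call was lost without either WT mouse (adjusted p = 0.0685 and 0.0537 by edgeR), at log2 differences of 0.87 and 1.04. Suv39h1 stood at 10.1 and 6.10 CPM in WT, 5.23 and 7.19 in K9M and 12.7 and 21.2 in K36M. Both K36M values exceeded both WT values, but the difference did not pass (log2 difference 1.06 ± 0.37 (SE), edgeR adjusted p = 0.0825); DESeq2 called it (adjusted p = 0.0380). Setdb1, Trim28, Ehmt1 and Kdm4b had log2 differences between -0.09 and 0.04. Mitotic markers summed to 206 and 72.5 CPM in WT and 371 and 391 in K36M, with 1 of 8 higher. T and NK cell markers (Cd3e, Cd3g, Gzma, Gzmb, Cd8a and Nkg7) summed to 316 and 331 CPM in WT and 40.9 and 30.2 in K36M, with 6 of 6 lower. Epithelial markers summed to 10004 and 11105 CPM against 7326 and 7524, with 1 of 6 lower. Spermatogonial markers summed to 0.581 and 0.339 CPM against 74.9 and 45.1. Of these 5 markers 1 passed the filter on low counts, only through K36M, where it was high. Its call as higher is therefore no independent support. The part of these cell type markers in the Kdm3a change was not tested.

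**Figure D3:**
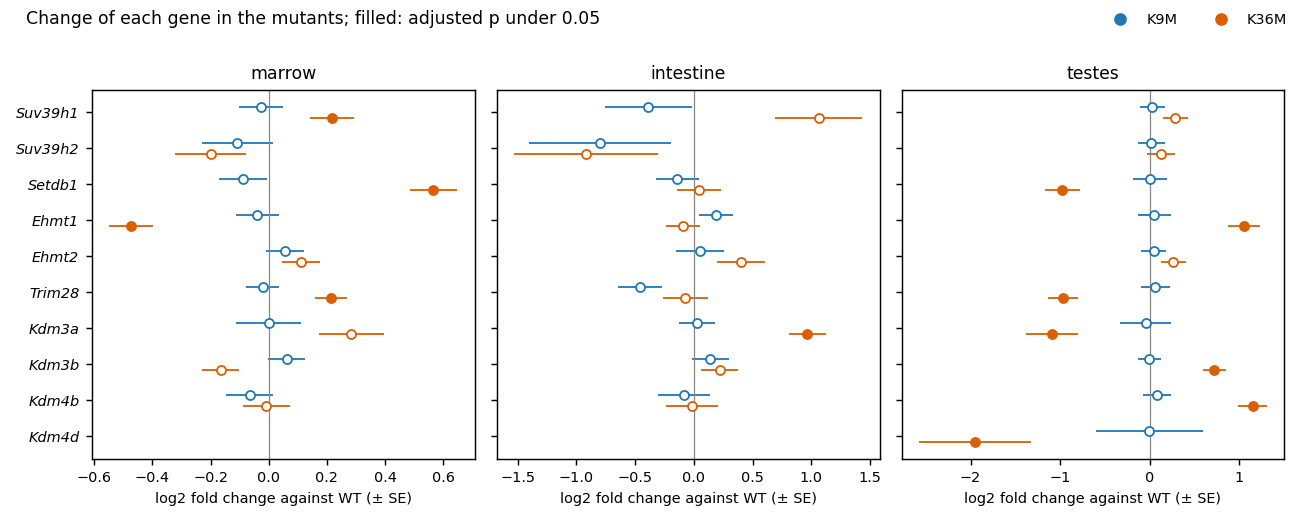
Log2 fold change against WT, with bars of 1 SE, for K9M and K36M in marrow, intestine and testes (the 3 axes have different ranges). Filled points passed an adjusted p of 0.05. No K9M point is filled, 4 K36M points are filled in marrow, 1 in intestine and 7 in testes.

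K36M in testes changed 7 of the 10 genes, 3 upward and 4 downward, where 49.5% of all genes passed (25.7% higher and 23.8% lower). The member median was 0.19 beside 0.02 over all genes. Ehmt1, Kdm3b and Kdm4b rose, and Setdb1, Trim28, Kdm3a and Kdm4d fell. The largest fall was that of Kdm4d, the demethylase of trimethylated H3K9 that only testes expressed above a few counts. It stood at 109 and 113 CPM in WT, 120.3 and 99.9 in K9M and 47.5 and 9.73 in K36M. Both K36M values were the lowest and far apart from each other. The fall was 3.87-fold (log2 difference -1.95 ± 0.63 (SE), edgeR adjusted p = 0.0406). The size rested on which K36M mouse was kept, with a log2 difference of -3.55 without mouse 1485 and -1.24 without mouse 1553. The call was lost without a low-count filter (adjusted p = 0.216 by edgeR) and with K9M left out of the fit (0.0767).

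Setdb1 and its recruiter Trim28 fell side by side. Setdb1 stood at 94.8 and 97.3 CPM in WT, 95.6 and 96.9 in K9M and 58.8 and 38.9 in K36M, a 1.97-fold fall (log2 difference -0.98 ± 0.20 (SE), edgeR adjusted p = 0.00893). Trim28 stood at 432 and 435 CPM in WT, 480.2 and 424 in K9M and 251 and 193 in K36M, a 1.96-fold fall (log2 difference -0.97 ± 0.16 (SE), edgeR adjusted p = 0.00557). For both genes the K36M libraries lay below all 4 others. Kdm3a, the activator of protamine genes, stood at 293 and 295 CPM in WT, 304 and 267 in K9M and 181 and 93.7 in K36M and fell 2.14-fold (log2 difference -1.10 ± 0.29 (SE), edgeR adjusted p = 0.0208). With K9M left out of the fit this call was lost too (adjusted p = 0.0512 by edgeR). Elongating spermatid markers, the protamine genes Prm1 and Prm2 among them, were higher in the same K36M libraries (5 of 5). A link between the 2 changes was not tested.

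The promoters of the 4 genes that fell are printed so that their letters can be compared. They are the 250 bases before the first RefSeq transcription start of each gene (GRCm38.p6, from RefSeq, written 5′ to 3′ on the strand of the gene). Capitals mark the letters CCGGAA, a sequence that ETS family factors recognise, on either strand. The motif was chosen after the sequences had been seen. The Setdb1 window lies at chr3:95357203-95357452 (minus strand), the Trim28 window at chr7:13023902-13024151 (plus strand), the Kdm3a window at chr6:71632918-71633167 (minus strand) and the Kdm4d window at chr9:14500483-14500732 (minus strand).
Setdb1: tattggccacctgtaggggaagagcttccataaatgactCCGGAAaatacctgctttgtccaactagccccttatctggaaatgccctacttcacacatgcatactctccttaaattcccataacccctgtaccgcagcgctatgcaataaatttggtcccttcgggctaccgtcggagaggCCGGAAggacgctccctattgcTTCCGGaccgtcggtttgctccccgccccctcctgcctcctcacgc
Trim28: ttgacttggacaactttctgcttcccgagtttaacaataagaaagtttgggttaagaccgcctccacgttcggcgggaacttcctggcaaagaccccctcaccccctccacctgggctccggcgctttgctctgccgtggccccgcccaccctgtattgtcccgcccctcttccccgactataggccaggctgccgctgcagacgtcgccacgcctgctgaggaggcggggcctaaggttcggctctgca
Kdm3a: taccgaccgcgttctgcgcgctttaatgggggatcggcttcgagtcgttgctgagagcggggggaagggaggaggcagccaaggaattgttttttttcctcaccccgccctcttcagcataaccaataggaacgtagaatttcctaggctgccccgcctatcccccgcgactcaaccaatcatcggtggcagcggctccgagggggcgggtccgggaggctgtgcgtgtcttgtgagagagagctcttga
Kdm4d: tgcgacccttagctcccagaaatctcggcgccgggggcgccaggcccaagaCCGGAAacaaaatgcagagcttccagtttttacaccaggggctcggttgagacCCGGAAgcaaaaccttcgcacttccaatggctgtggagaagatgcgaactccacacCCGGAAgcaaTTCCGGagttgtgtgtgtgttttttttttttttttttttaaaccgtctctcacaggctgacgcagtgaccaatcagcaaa
Setdb1 held 3 matches and Kdm4d 4, and Trim28 and Kdm3a held 0 in these windows. The Kdm3a result depends on the start, since the window of its second start held 1 match, 4 GC boxes (GGGCGG) and 0 CCAAT boxes. The first windows of Suv39h1, Suv39h2, Ehmt1 and Ehmt2, which did not fall in testes, held 0 matches. A match stands in 12.0% of the 32817 mouse promoter windows of this length. The CCAAT box (CCAAT on either strand) stood once in Setdb1, in 2 places in Kdm3a and Kdm4d each and not in Trim28, against 33.8% of all windows with at least 1. The GC box (GGGCGG on either strand) stood in Setdb1 (1 match), Trim28 (2) and Kdm3a (2) and not in Kdm4d, against 32.7%. A match of letters is a description and not a bound site.

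The 3 genes that rose stood at 14.7 to 48.5 CPM in WT testes, where Suv39h1 and Suv39h2, which did not pass, had means of 10.7 and 31.0 CPM. Ehmt1 stood at 14.7 and 14.8 CPM in WT, 15.5 and 15.1 in K9M and 25.4 and 35.7 in K36M, a 2.07-fold rise (log2 difference 1.05 ± 0.18 (SE), edgeR adjusted p = 0.00564). Kdm4b stood at 28.1 and 26.9 CPM in WT, 27.8 and 30.4 in K9M and 52.5 and 69.4 in K36M, a 2.21-fold rise (log2 difference 1.15 ± 0.16 (SE), edgeR adjusted p = 0.00361). Kdm3b stood at 48.5 and 46.1 CPM in WT, 46.7 and 47.5 in K9M and 70.98 and 84.9 in K36M, a 1.65-fold rise (log2 difference 0.72 ± 0.13 (SE), edgeR adjusted p = 0.00681). In each case both K36M values lay above the 4 others. Ehmt2 stood at 294 and 284 CPM in WT, 315 and 281 in K9M and 326 and 369 in K36M, highest in K36M, but did not pass (edgeR adjusted p = 0.145). The log2 differences of Suv39h1 and Suv39h2 were 0.29 and 0.13 and did not pass (edgeR adjusted p = 0.123 and 0.520). Within the pairs, the Ehmt2 to Ehmt1 ratio was 29.5 and 28.5 in WT and 18.96 and 15.3 in K36M, and the Kdm3a to Kdm3b ratio was 10.4 and 10.99 in WT and 4.38 and 1.89 in K36M.

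**Figure D4:**
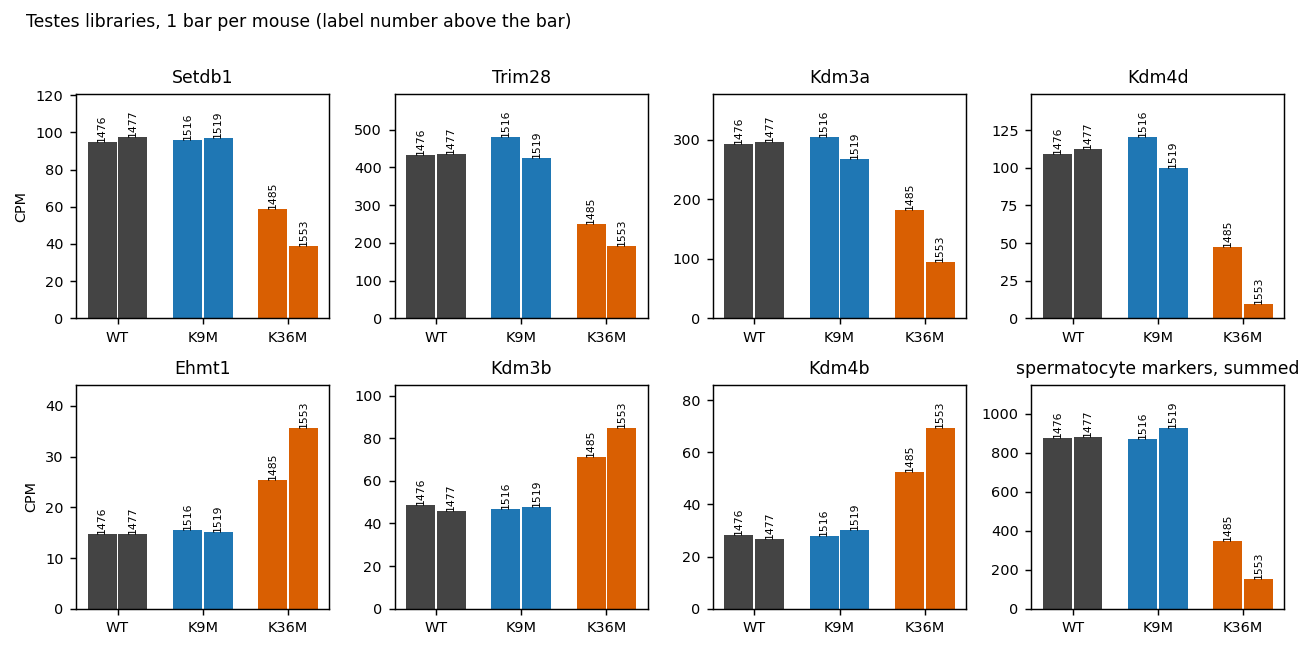
CPM in each of the 6 testes libraries, 1 bar per mouse with its label number, for the 7 genes that changed in K36M and for the summed spermatocyte markers. In every panel the K36M mouse 1553 lies farther from WT than the K36M mouse 1485, and the K9M bars lie near the WT bars.

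The 2 K36M mice differed in degree. All 7 genes lay farther from the WT mean in mouse 1553 than in mouse 1485. Spermatocyte and elongating spermatid markers also lay farther from WT in mouse 1553, while spermatogonial and round spermatid markers did not. Spermatocyte markers (Sycp1, Sycp3, Hormad1, Piwil1 and Meiob) summed to 877 and 880.3 CPM in WT, 871 and 929 in K9M and 347 and 152 in K36M, with 5 of 5 lower in K36M. Elongating spermatid markers summed to 9780.3 and 10008 CPM in WT and 21068 and 31219 in K36M, with 5 of 5 higher. Round spermatid markers (Acrv1, Acr, Spaca1, Tssk1 and Izumo1) summed to 931 and 911 and 952 and 919, with 1 of 5 higher. Sertoli cell markers were higher in 4 of 4 (sums 84.8 and 88.1 against 202 and 257), Leydig cell markers lower in 4 of 5 (456 and 359 against 64.5 and 46.1), spermatogonial markers higher in 3 of 5 (64.4 and 66.1 against 119.5 and 117) and mitotic markers lower in 7 of 8 (649 and 626 against 366 and 155). Their part in the 7 changes was not tested.

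The count of 7 was lower without a WT or a K9M library. Calls over all genes also varied widely with 1 library left out, over the range given in the last paragraph. Without mouse WT.1476, or without mouse WT.1477, 1 gene was called, Kdm4b, and the adjusted p of the other 6 was 0.0516 to 0.125 by edgeR, at log2 differences close to those of the whole fit (for Setdb1 -1.001 and -0.96). Without either K9M mouse 5 were called, Kdm3a and Kdm4d being lost. Without K36M mouse 1553 the same 7 were called, and without K36M mouse 1485 these and Ehmt2.

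Set directly against each other, the mutants differed in all 3 tissues. In marrow 5 of 9 genes differed (53.8% of all genes): Suv39h1, Setdb1 and Trim28 were lower in K9M, and Ehmt1 and Kdm3b higher. Kdm3b stood at 239 and 241 CPM in K9M and 198 and 212 in K36M (log2 difference 0.23 ± 0.06 (SE), edgeR adjusted p = 0.0171). In intestine 2 of 9 differed (25.1%), with Kdm3a 1.92-fold (edgeR adjusted p = 0.00960) and Suv39h1 2.73-fold (edgeR adjusted p = 0.0342) lower in K9M. In testes 7 of 10 differed (49.2%). Setdb1, Trim28, Kdm3a and Kdm4d were higher in K9M and Ehmt1, Kdm3b and Kdm4b lower. Leaving out K9M mouse 1516 took the testes count to 0 and leaving out K9M mouse 1519 took it to 2. Without mouse 1516 the count over all genes was 0 as well, and the log2 differences of Setdb1, Trim28 and Ehmt1 were 0.99, 0.94 and -1.02, against 0.98, 1.03 and -0.997 in the whole fit. In intestine the count was 0 without either K9M mouse. In marrow it was 2 without K9M mouse 1362 and 3 without K9M mouse 1363 or K36M mouse 1312. The K9M and K36M values against WT share the same WT libraries.

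The K36M differences were not the same in every tissue, by a test of the difference itself. Between marrow and testes 6 of 10 genes differed in their K36M effect (24.8% of all genes). Setdb1 rose in marrow and fell in testes (marrow minus testes log2 difference 1.61 ± 0.28 (SE), edgeR adjusted p = 0.00115), and so did Trim28 (log2 difference 1.25 ± 0.26 (SE), edgeR adjusted p = 0.00400). Ehmt1 did the reverse, falling in marrow and rising in testes (log2 difference -1.45 ± 0.23 (SE), edgeR adjusted p = 0.000667). Kdm3a, Kdm3b and Kdm4b also differed, at 1.44, -0.82 and -1.08. Between intestine and testes 5 of 10 differed (22.5%). Kdm3a, which rose in intestine and fell in testes, had the largest such difference (log2 difference 2.03 ± 0.34 (SE), edgeR adjusted p = 0.00304), and Setdb1, Trim28, Ehmt1 and Kdm4b were the others. Each mouse gave both of these tissues. With the mouse as a block this count was 2, Kdm3a and Ehmt1, and the adjusted p of Setdb1, Trim28 and Kdm4b was 0.0569, 0.101 and 0.0723 by edgeR. Without either WT testes library the count was 1, and without K36M testes mouse 1553 it was 2. It was 3 without either K36M intestine library, without the intestine of K9M mouse 1516 or without either K9M testes library. Between marrow and intestine 0 of 10 differed (17.2%), with 1 gene at an unadjusted p under 0.05 (all genes 29.1%) and 0 by DESeq2. Kdm4d is among these 10, with few counts in both tissues. Without the intestine of mouse WT.1477 3 genes differed there, Suv39h2, Setdb1 and Trim28, without the intestine of mouse WT.1476 Suv39h1 did, and without the testes of either K36M mouse Setdb1 did.

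Ordered by mean CPM per kb (± SD, n = 2 libraries) over all 9 groups, Setdb1 ran from K36M marrow (26.2 ± 1.99) to K9M intestine (4.71 ± 0.693) and Trim28 from K36M marrow (139 ± 3.10) to K9M intestine (16.2 ± 1.01). Suv39h1 ran from K36M marrow (21.2 ± 1.33) to K9M intestine (1.64 ± 0.340), and Suv39h2 from K36M testes (7.17 ± 0.592) to K36M intestine (0.294 ± 0.0929). Ehmt1 ran from WT marrow (12.6 ± 0.686) to WT testes (1.75 ± 0.00106), and Ehmt2 from K36M testes (59.2 ± 4.47) to WT intestine (29.5 ± 3.27). Among the demethylases, Kdm3a ran from WT testes (34.4 ± 0.136) to K9M marrow (8.19 ± 0.0566), Kdm3b from K9M marrow (12.7 ± 0.205) to K9M testes (3.20 ± 0.0768), Kdm4b from K36M testes (11.6 ± 2.15) to WT testes (5.41 ± 0.170) and Kdm4d from WT testes (37.2 ± 0.802) to K9M intestine (0 ± 0). Of the 8 pairs of neighbouring groups in each order, between 2 (Ehmt1) and 6 (Kdm4b) overlapped in their library values. For Setdb1 and Trim28 the WT and K9M groups of testes were neighbours that overlapped, as were the intestine groups of Setdb1.

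The rest of the pathway was counted in the same fits. Under K9M, 0 genes of the 4 lists (Setdb2, Prdm2, Mecom and Prdm16 as other methyltransferases, 12 cofactors, 6 HP1 readers and partners, 8 other demethylases) passed in any tissue. In K36M marrow, where 48% of all genes passed, the counts were 1 higher and 2 lower of 4 other methyltransferases, 6 higher and 1 lower of 12 cofactors, 3 higher and 1 lower of 6 HP1 readers and partners, 2 higher and 3 lower of 7 other demethylases. In K36M intestine, where 23.3% passed, they were 0 higher and 0 lower of 4 other methyltransferases, 1 higher and 1 lower of 11 cofactors, 0 higher and 0 lower of 6 HP1 readers and partners, 1 higher and 0 lower of 8 other demethylases. In K36M testes, where 49.5% passed, they were 0 higher and 1 lower of 4 other methyltransferases, 2 higher and 7 lower of 12 cofactors, 0 higher and 3 lower of 6 HP1 readers and partners, 2 higher and 2 lower of 8 other demethylases. Of the HP1 list in testes, all 6 log2 differences were negative, with a median of -0.28 beside 0.02 over all genes, and the cofactor median was -0.48.

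The genes named here had the largest changes past the threshold. Atf7ip2, a relative of the SETDB1 partner ATF7IP, had 1 and 2 counts in WT marrow, 5 and 3 in K9M and 15 and 12 in K36M (3.23 ± 0.69 (SE), edgeR adjusted p = 0.00634). The ratio of summed counts of K36M to WT was 10.4, with an exact 95% interval of 3.19 to 53.3 for counting error only. Atf7ip2 passed the filter on low counts only through K36M, where it was high, so its call is no independent support. It is among the 6 cofactors counted as higher in K36M marrow. Resf1, a SETDB1 cofactor in retroelement silencing listed under its older symbol 2810474O19Rik, rose in marrow (88.3 and 88.3 against 187 and 191 CPM, 1.10 ± 0.09 (SE), edgeR adjusted p = 0.000100) and in testes (22.2 and 23.99 against 49.9 and 58.2 CPM, 1.23 ± 0.15 (SE), edgeR adjusted p = 0.00285). In marrow the methyltransferases Prdm16 (-1.29 ± 0.24 (SE), edgeR adjusted p = 0.00363) and Prdm2 (-0.76 ± 0.09 (SE), edgeR adjusted p = 0.000458) fell. In intestine Zfp809, a zinc finger protein that brings TRIM28 to proviruses, rose (1.36 ± 0.17 (SE), edgeR adjusted p = 0.00461), as did the demethylase Kdm4a (0.77 ± 0.16 (SE), edgeR adjusted p = 0.0182), and Fam208a, the HUSH complex subunit TASOR, fell (-0.73 ± 0.18 (SE), edgeR adjusted p = 0.0308). In testes the demethylase Phf8 rose (1.15 ± 0.15 (SE), edgeR adjusted p = 0.00295), the demethylase Phf2 fell (-2.26 ± 0.32 (SE), edgeR adjusted p = 0.00398), and the HUSH subunit Mphosph8 fell (-1.68 ± 0.32 (SE), edgeR adjusted p = 0.00838). Phf2 stood at 106 and 106 CPM in WT testes and 30.2 and 14.3 in K36M, with mouse 1553 the lower, as for the 4 genes above that fell.

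Across the 9 group means, the genes most like each member were found by Pearson correlation of log2 CPM over 16856 genes, as a description over groups that share libraries, depth and scaling. Kdm4d was most like Bbof1 (r = 0.9995) and Tex101 (r = 0.998), Suv39h2 like Scml2 (r = 0.999) and Ercc1 (r = 0.997), and Trim28 like Fignl1 (r = 0.996) and Slc24a5 (r = 0.996). Setdb1 was most like Ddx18 (r = 0.993) and Ddx46 (r = 0.993), both encoding RNA helicases. Ehmt1 was most like Zfp64 (r = 0.993) and Atrx (r = 0.991), Ehmt2 like Slc4a3 (r = 0.997) and Pald1 (r = 0.995) and Suv39h1 like Rab38 (r = 0.996) and Prpf19 (r = 0.995). Kdm3a was most like Fcna (r = 0.993) and Thap7 (r = 0.982) and Kdm3b like Gyg (r = 0.997) and Prrc2b (r = 0.997). Kdm4b had the least close matches, Capzb (r = 0.937) and Rln1 (r = 0.908). Between members, Setdb1 and Trim28 correlated at 0.958, Ehmt1 and Kdm3b at 0.965, and Ehmt1 and Kdm3a at -0.949 over the same 9 means.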

How the data were processed

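RNA from 18 mouse libraries was counted per gene by the authors. Per the submitters' processing notes STAR, HTSeq and the build mm9 were used, with no versions given. The strand setting is not given in the sources used here. The deposited values are raw counts for 37620 Ensembl identifiers, and 5 entries that name no gene (no feature 9.89% to 26.0%, not unique 15.3% to 29.1%, ambiguous 2.21% to 4.17% of the reads listed) were left out of library sizes and tests. Reads that map to several places were not counted, which can lower near-identical paralogs.

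Symbols, exon lengths and positions come from GENCODE M21 (GRCm38) and were matched by identifier, since the files' build is mm9. For 32897 of the identifiers a symbol was found, and 8 of the 10 members had an entry with a promoter sequence used here. Groups came from the titles and genotype labels. Tests were run with edgeR 4.0.16 in R 4.3.3 (filterByExpr, TMM scaling, robust quasi-likelihood fit, adjusted p under 0.05 over all tested genes). 1 fit per tissue of 6 libraries gave the mutant comparisons, 12 libraries the intestine and testes differences, and 18 the others with marrow. DESeq2 1.42.0, limma-voom 3.58.1, other scalings, no filter, other library sets and leaving out each library were tried. The fits were tested on simulated data. The members and lists were chosen with earlier results of these data known. The text names all members and, per comparison, up to 2 pathway genes that rose and 2 that fell the most.

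Intestine and testes share mice by the numbers in the titles, so a fit with the mouse as a block was also run. Deviations from the group means in intestine and testes of the same mice had a correlation of 0.0289 (WT), 0.0703 (K9M) and -0.00869 (K36M) over 20253 genes. With 2 mice per group, the spread behind each p-value was estimated over all groups of a fit together. In the main fits this includes the K36M mice, also where K9M is compared with WT. Whether libraries were prepared together is not given. A log2 difference of a low gene is shrunk by edgeR's prior count. The list genes Spata22 and Rhox5 were not matched and not used.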

Additional observations from a re-analysis of the deposited data

Results flagged for a closer look

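The K36M effect differed between tissues for 6 of the 10 genes, by edgeR's test of the difference of 2 effects with Benjamini-Hochberg adjustment. For intestine minus testes 5 of 10 differed (22.5% of all genes), and for marrow minus testes 6 of 10 (24.8%). For marrow minus intestine 0 of 10 did (17.2%), with Kdm4d, at few counts in both tissues, among the 10. Values are log2 differences of the effects. For Setdb1, intestine minus testes was 0.98 (adjusted p = 0.0316) and marrow minus testes 1.61 (0.00115). For Trim28 they were 0.85 (0.0411) and 1.25 (0.00400), and for Kdm3a 2.03 (0.00304) and 1.44 (0.00594). Ehmt1 had -1.20 (0.0133) and -1.45 (0.000667), and Kdm4b -1.22 (0.0210) and -1.08 (0.0121). For Kdm3b the difference of marrow minus testes was -0.82 (0.0134). Intestine and testes libraries share their 6 mice, and with the mouse as a replicate block the calls of intestine minus testes were lost for Setdb1 (adjusted p = 0.0569), Trim28 (0.101) and Kdm4b (0.0723) by edgeR. All share the testes libraries of K36M mice 1485 and 1553, and the part of the testes cell markers that moved in the same mice was not tested.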

How the results depend on the processing

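Of 3082 alternative values for single genes, 2773 kept their direction and their side of the threshold, 113 lost a call, 48 gained one, 145 changed sign without a call and 3 changed sign with a call. Those 3 came from scaling by library size alone: Kdm3b in WT testes against WT intestine (0.0087, log2), and Kdm3a (-0.27) and Kdm4b (-0.65, adjusted p = 0.00378 by edgeR) in WT intestine against WT marrow. That scaling also moved the share of higher calls over all genes from 51.4% to 40.6% in intestine K9M against K36M, from 54.2% to 35.6% in WT intestine against WT marrow, and from 44.9% to 58.5%, 56.9% to 38.9% and 49.0% to 62.4% in the K36M effect of intestine minus testes, the K36M effect of marrow minus intestine and the K9M effect of marrow minus intestine. It moved the median of all genes by over 0.1 in testes K36M against WT (from 0.02 to -0.12), and with RLE scaling the WT tissue medians were 1.06, 1.07 and 0.10.

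Member calls in intestine K36M against WT were 1, and 2 with DESeq2, with no filter and with all 18 libraries. In marrow all 18 libraries in 1 fit gave 1 for K36M against WT (4 in the fit of the tissue) and 1 for K9M against K36M (5 in the fit of the tissue). The K36M effect of intestine minus testes gave 3 with no filter and 2 with the mouse as a replicate block (5 in the fit without a block), and the block changed no other count of member calls. Leaving out 1 library at a time gave 0 in every K9M comparison with WT and every K9M effect between tissues. It gave 2 to 5 in marrow K36M against WT and in marrow K9M against K36M, 0 to 2 in intestine K36M against WT and in intestine K9M against K36M, 1 to 8 in testes K36M against WT and 0 to 8 in testes K9M against K36M. For the K36M effects it gave 1 to 6 for intestine minus testes, 4 to 7 for marrow minus testes and 0 to 3 for marrow minus intestine. A library left out leaves its group with 1, which is then taken to vary like the other groups. The cause was not tested beyond the smaller number of libraries.

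Over all genes the calls under K9M against WT were, in intestine, 30, against 372 with DESeq2, 1180 with no filter, 202 with 2 genotypes alone and 453 with all 18 libraries; in marrow 147, against 352 with DESeq2 and 463 with no filter; in testes 13, against 46, 37 and, with 2 genotypes alone, 213. Testes K36M against WT gave 9476, and 2310 to 12934 with 1 library left out, and testes K9M against K36M 9430, and 0 to 12901. Intestine K36M against WT gave 3323, against 1890 with 2 genotypes alone and 5910 with all 18 libraries, and marrow K36M against WT 7017, against 3635 with all 18. The block took the K36M effect of intestine minus testes from 4552 to 2968. With 54 or fewer counts of Suv39h2 in each intestine library, depth limits that gene there.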
